A study of Mus musculus with 6 samples.

Results

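Glucocorticoid-induced stress genes were followed as a list of 9 genes, *Fkbp5*, *Zbtb16*, *Tsc22d3*, *Mt1*, *Mt2*, *Sgk1*, *Ddit4*, *Klf9* and *Lcn2*, among the 54232 gene identifiers counted in each library. The members were picked by name as known glucocorticoid targets and mapped from GENCODE M21 symbols to Ensembl identifiers, a rule that uses no measured value, although the list was drawn up with earlier results of these data known. All 9 had enough reads to be among the 14133 genes tested. RNA was taken from the heart ventricle of wild-type C57BL/6J mice, 3 in the WD + Tributyrin group and 3 in the WD + Vehicle group, and was measured by stranded mRNA sequencing. All 6 mice had eaten a western diet (WD) for 15 weeks when needle-feeding began, which went on for 3 weeks in a pattern of days on and days off. The dose was 5 g per kg body weight of Tributyrin, a triglyceride that releases the short-chain fatty acid butyrate, or vehicle, which the sample labels call PBS. Age, sex and the hour of tissue collection were not given for single mice, and no mouse on normal chow was analysed here. The ventricle is a mix of cell types, so fewer cells of a type and less RNA per cell cannot be told apart in any value below.

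Glucocorticoids, the stress hormones of the adrenal cortex, enter cells and bind the glucocorticoid receptor, which then moves to the nucleus and binds a palindromic DNA element near its targets. Secretion follows a daily rhythm and rises with stress, so transcripts of direct targets can differ between animals taken at different hours or after different handling. Cardiomyocytes carry the receptor, and the members cover several arms of the response: a feedback on the receptor (*Fkbp5*), transcription regulators (*Zbtb16*, *Tsc22d3*, *Klf9*), growth and kinase control (*Sgk1*, *Ddit4*), metal binding (*Mt1*, *Mt2*) and a secreted protein of inflammation (*Lcn2*).

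The regions before the transcription starts are shown for the members whose sequence or whose spread between mice stands out among the 9. The RefSeq table of build GRCm38.p6 held 15 windows for 8 of the 9 members, each of 250 bases before and 50 after a start. *Zbtb16* had none. The full palindrome of the glucocorticoid response element, AGAACA then any 3 bases then TGTTCT, which reads the same on both strands, was found in 1 of the 15 windows and in 0.00914% of the 32817 windows of that length in the table. That window lies at one of 6 listed starts of *Sgk1*. Its 250 bases before the start, at chr10:21993640-21993889 on the plus strand, are written 5′ to 3′ with the palindrome in capitals.

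Sgk1: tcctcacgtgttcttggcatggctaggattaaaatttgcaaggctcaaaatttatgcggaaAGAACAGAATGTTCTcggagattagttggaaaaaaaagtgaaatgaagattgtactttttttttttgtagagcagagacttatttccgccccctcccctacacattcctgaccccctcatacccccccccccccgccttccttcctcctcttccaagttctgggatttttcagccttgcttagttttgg

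The palindrome spanned positions -189 to -175 relative to that start. A single arm of it, TGTTCT on either strand, is also part of the palindrome and was found in 4 windows, of *Sgk1* and *Tsc22d3*, against 19.0% of all windows. The core of the metal response element, searched as TGCACNC or TGCGCNC on both strands, was held by 25.7% of all windows. Among the 15 windows of members 4 held it, those of *Mt2*, *Mt1* and *Ddit4* and 1 of *Sgk1*. The windows of *Ddit4* and *Sgk1* held 1 such core each. *Mt2* held 4 such cores and *Mt1* held 3, where 99% of all windows held at most 3. The cores lying before the start are in capitals for *Mt2* at chr8:94172368-94172617 and *Mt1* at chr8:94178839-94179088, both on the plus strand.

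Mt2: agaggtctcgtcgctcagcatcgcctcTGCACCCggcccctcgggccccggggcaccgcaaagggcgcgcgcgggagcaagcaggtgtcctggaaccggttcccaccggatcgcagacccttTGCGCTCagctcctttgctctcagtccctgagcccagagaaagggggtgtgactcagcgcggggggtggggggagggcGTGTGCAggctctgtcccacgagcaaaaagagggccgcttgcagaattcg

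Mt1: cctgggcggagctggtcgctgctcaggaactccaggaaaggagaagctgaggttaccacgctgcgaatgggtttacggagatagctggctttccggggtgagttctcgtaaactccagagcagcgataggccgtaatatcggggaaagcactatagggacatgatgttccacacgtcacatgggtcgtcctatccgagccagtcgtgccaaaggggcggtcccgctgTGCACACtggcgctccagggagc

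The other cores of both genes lay within the 50 bases after the listed start, at 3 to 9 and 21 to 27 in *Mt1* and at 5 to 11 in *Mt2*. In GENCODE M21 *Mt2* begins only at 94172664, so its core at 5 to 11 lies before that gene start. GENCODE M21 also lists *Mt1* transcripts that begin at 94179211 and 94179241, so the window covers only a part of the region before those. For *Fkbp5*, the window at chr17:28486150-28486399 on the minus strand held none of the letters searched.

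Fkbp5: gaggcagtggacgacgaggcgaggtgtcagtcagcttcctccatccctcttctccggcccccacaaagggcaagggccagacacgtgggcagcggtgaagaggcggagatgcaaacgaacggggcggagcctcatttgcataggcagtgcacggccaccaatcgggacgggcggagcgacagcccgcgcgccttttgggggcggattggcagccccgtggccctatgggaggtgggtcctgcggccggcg

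A match describes letters only, and its absence says nothing of the receptor, since elements farther from the start were outside these windows.

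The libraries held 20369746 to 32734485 counts on genes. In edgeR's quasi-likelihood test 0 genes passed a false discovery rate (FDR) of 10% and 0 passed 5%, 600 had an unadjusted p under 0.05, and DESeq2 called 11 at 10%. Mitochondrial transcripts took 23.6% to 28.8% of the counts. All 6 libraries had 68.4 to 85.5 CPM (counts scaled to library size with TMM factors, the unit of all levels below) of the Y-linked *Ddx3y* and at most 0.237 CPM of *Xist*. The 8 cardiomyocyte markers summed to 50929.4 to 56709.2 CPM, and the 6 atrial markers to 172.5 and 182.0 CPM in vehicle mice 2 and 1 against at most 64.4 CPM in the other 4 mice, although the label is ventricle.

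Tributyrin was not followed by a change in any of the 9 members that passed the test. Of the 9, 0 passed an FDR of 10% (0.0% of all genes tested) and the adjusted p was 0.999 for each in edgeR's quasi-likelihood test. At an unadjusted p under 0.05 there was 1 member, *Lcn2*, against 4.25% of all genes tested, and 1.97% when only genes higher with Tributyrin are counted. The fitted value was above 0 for 7 members and below 0 for 2, with a median log2 fold change of 0.086 beside -0.001 over all genes tested. In 0 of 9 members did the mice of one group all lie apart from those of the other, which was so for 8.94% of all genes tested. The plot of CPM by mouse shows the groups side by side.

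**Figure D1:**
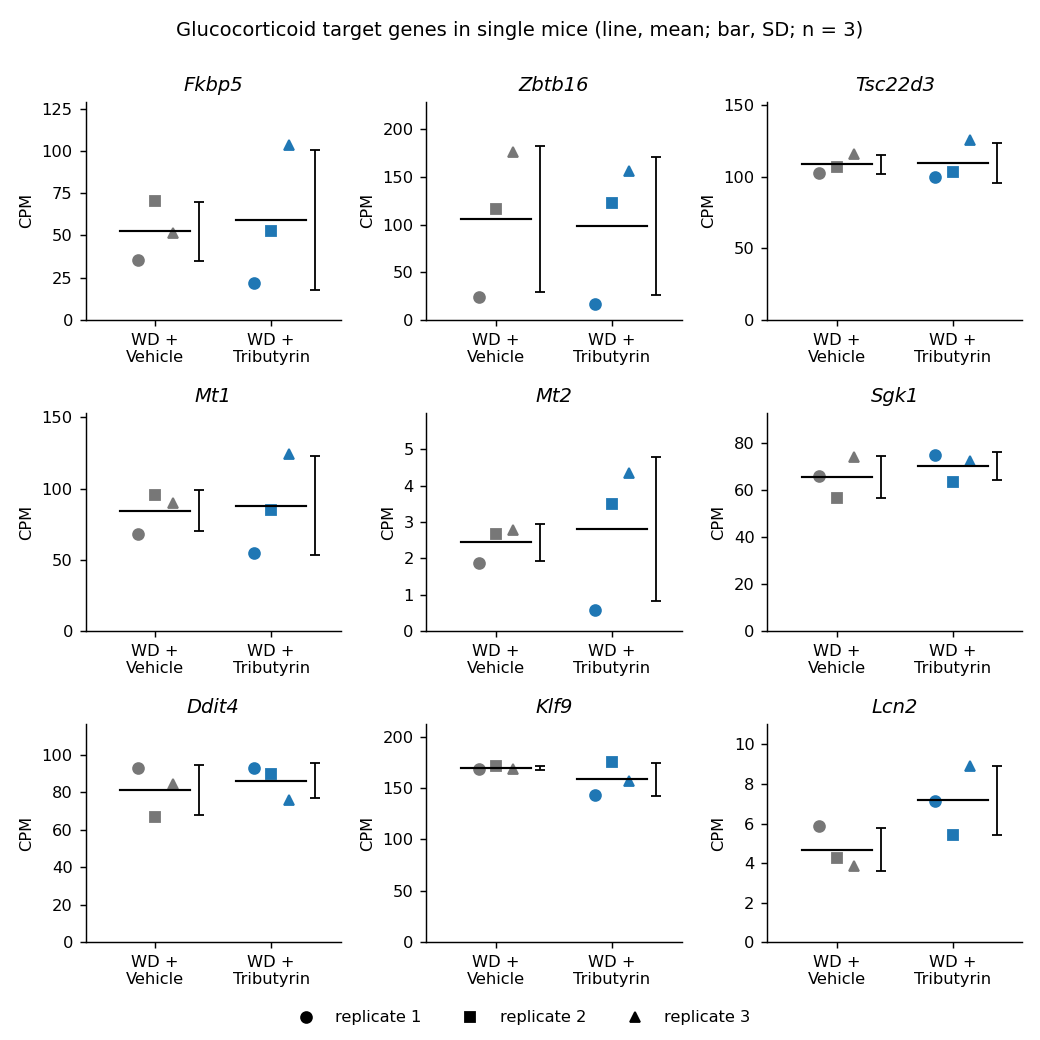
CPM of each member (vertical axes, from 0) in the 3 mice of each group (grey, WD + Vehicle; blue, WD + Tributyrin); symbols give the replicate number, lines the mean and bars the SD. The groups overlap in all 9 panels, and replicate 1 of both groups lies lowest in its group for Fkbp5, Zbtb16, Tsc22d3, Mt1 and Mt2.

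*Fkbp5* encodes a co-chaperone of the glucocorticoid receptor complex that lowers the receptor's affinity for hormone, and it is itself induced by the receptor. The gene (ENSMUSG00000024222) spans 28399094 to 28517527 of chromosome 17, minus strand, in GRCm38. Its level was 35.7, 70.3 and 51.2 CPM in the vehicle mice and 21.8, 52.3 and 103.2 CPM in the Tributyrin mice. The lowest and the highest mouse were thus both in the Tributyrin group, 4.74-fold apart, while the vehicle mice were 1.97-fold apart. The mean was 52.4 ± 17.3 CPM (SD, n = 3) with vehicle and 59.1 ± 41.1 CPM (SD, n = 3) with Tributyrin. The log2 fold change was 0.16 (standard error 0.43, 95% interval -0.79 to 1.12), so that a change of 2-fold in the upward direction lies inside the interval. Without Tributyrin mouse 3 it was -0.50 and without Tributyrin mouse 1 it was 0.57.

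*Zbtb16* encodes PLZF, a zinc finger repressor that is strongly induced by glucocorticoids in many tissues. The gene (ENSMUSG00000066687) spans 48654297 to 48836222 of chromosome 9, minus strand. The level was 24.2, 116.6 and 176.5 CPM with vehicle and 17.2, 122.7 and 156.2 CPM with Tributyrin. In each group 1 mouse stood far below the other 2, which made a 10.3-fold range over the 6 mice, 7.29-fold within vehicle and 9.08-fold within Tributyrin. The log2 fold change was -0.10 (standard error 0.71, 95% interval -1.68 to 1.48), and it was 0.41 without Tributyrin mouse 1 and 0.48 without vehicle mouse 3. The counts behind the low values were 613 and 483 reads, so counting error is small beside this spread.

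*Tsc22d3* encodes GILZ, a leucine zipper protein that carries part of the anti-inflammatory action of glucocorticoids. The gene (ENSMUSG00000031431) spans 140539528 to 140600659 of chromosome X, minus strand. Its level was 102.9, 107.2 and 115.8 CPM with vehicle and 99.7, 103.5 and 125.5 CPM with Tributyrin. The order of the mice was close to that of *Fkbp5*, but the range was only 1.26-fold. With Tributyrin over vehicle, the fitted log2 fold change was 0.01 (standard error 0.10, 95% interval -0.20 to 0.22).

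*Klf9*, a Krüppel-like transcription factor that responds to glucocorticoid and thyroid hormone, was the steadiest member in the vehicle mice, at 168.3, 171.7 and 168.3 CPM. In the Tributyrin mice it was at 143.2, 175.1 and 157.0 CPM, on both sides of the vehicle mice. Its log2 fold change was -0.10 (standard error 0.08, 95% interval -0.28 to 0.08). The gene (ENSMUSG00000033863) spans 23141226 to 23168134 of chromosome 19, plus strand.

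*Sgk1* encodes a serine/threonine kinase that regulates ion channels and is the member with the full palindrome shown above. The gene (ENSMUSG00000019970) spans 21882184 to 21999903 of chromosome 10, plus strand. Its level was 66.1, 56.7 and 74.3 CPM with vehicle and 75.2, 63.7 and 72.4 CPM with Tributyrin. The 6 mice lay within 1.33-fold, and the mouse lowest for *Fkbp5*, Tributyrin mouse 1, was the highest for *Sgk1*. For *Sgk1* the log2 fold change was 0.10 (standard error 0.11, 95% interval -0.13 to 0.34). The counts add up reads from all starts of the gene, so they do not show which start was in use.

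*Ddit4* encodes REDD1, an inhibitor of mTORC1 that is raised by glucocorticoids, hypoxia and energy stress. The gene (ENSMUSG00000020108) spans 59949669 to 59951834 of chromosome 10, minus strand. Its level was 92.7, 66.6 and 84.5 CPM with vehicle and 93.0, 89.8 and 75.6 CPM with Tributyrin, a range of 1.4-fold. Vehicle mouse 2 and Tributyrin mouse 3, the highest for *Fkbp5* in their groups, were the lowest for *Ddit4* in theirs. For *Ddit4* it came to a log2 fold change of 0.09 (standard error 0.12, 95% interval -0.18 to 0.36).

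*Mt1* and *Mt2* encode metallothioneins, small cysteine-rich proteins that bind zinc and copper, and both are induced by glucocorticoids as well as by metals. They are neighbours on the plus strand of chromosome 8, where *Mt2* (ENSMUSG00000031762) spans 94172664 to 94173568 and *Mt1* (ENSMUSG00000031765) spans 94179082 to 94180327. *Mt1* was at 68.3, 95.3 and 89.8 CPM with vehicle and at 54.6, 85.2 and 124.1 CPM with Tributyrin. *Mt2* was at 1.86, 2.68 and 2.79 CPM with vehicle and at 0.569, 3.49 and 4.35 CPM with Tributyrin. For both genes Tributyrin mouse 1 was the lowest and Tributyrin mouse 3 the highest of the 6 mice, 2.27-fold apart for *Mt1* and 7.64-fold for *Mt2*. The log2 fold change was 0.06 (standard error 0.24, 95% interval -0.47 to 0.58) for *Mt1* and 0.18 (standard error 0.51, 95% interval -0.95 to 1.31) for *Mt2*. The value of *Mt2* rests on 16 to 100 reads per library. Of its 588 exonic bases, 432 (73.5%) are shared with exons of *Gm45774* on the opposite strand, which was listed with 1 to 7 reads. If strand was ignored in the counting, reads in that part could not be given to either gene, and the level of *Mt2* would then be too low, which was not tested since the sources used here do not give the strand setting. No stretch of 50 bases, the read length, was shared between an *Mt1* or *Mt2* transcript and a transcript of any other gene (0 of 1292 and 0 of 554 stretches).

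*Lcn2* encodes lipocalin 2, a secreted protein that binds bacterial siderophores and rises in inflamed or strained tissue. The gene (ENSMUSG00000026822) spans 32384633 to 32388252 of chromosome 2, minus strand. Its level was 5.89, 4.27 and 3.83 CPM with vehicle and 7.15, 5.44 and 8.92 CPM with Tributyrin, from 81 to 205 reads per library. Of the Tributyrin mice 2 lay above all vehicle mice, and the other lay between vehicle mice 2 and 1. The mean was 4.66 ± 1.08 CPM (SD, n = 3) with vehicle and 7.17 ± 1.74 CPM (SD, n = 3) with Tributyrin. The log2 fold change was 0.61 (standard error 0.21, 95% interval 0.15 to 1.08), the largest in size of the 9 members. Its unadjusted p was 0.0148, rank 172 of all genes tested, with an adjusted p of 0.999 in edgeR's quasi-likelihood test, and a two-sided exact permutation test of the means gave p = 0.2, where 0.1 is the smallest that 3 mice against 3 allow. It was above 0 in each alternative run, from 0.43 without Tributyrin mouse 3 to 0.82 without vehicle mouse 1 among the mice left out singly. The only alternative in which it passed 10% was the one with no filter on low counts, with an adjusted p of 0.0279 in edgeR's quasi-likelihood test, in a range up to 1 over the alternatives. That run tested 25581 genes, of which 167 passed 10%, against 0 of 14133 in the main run, while the log2 fold change of *Lcn2* was nearly the same, at 0.62.

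**Figure D2:**
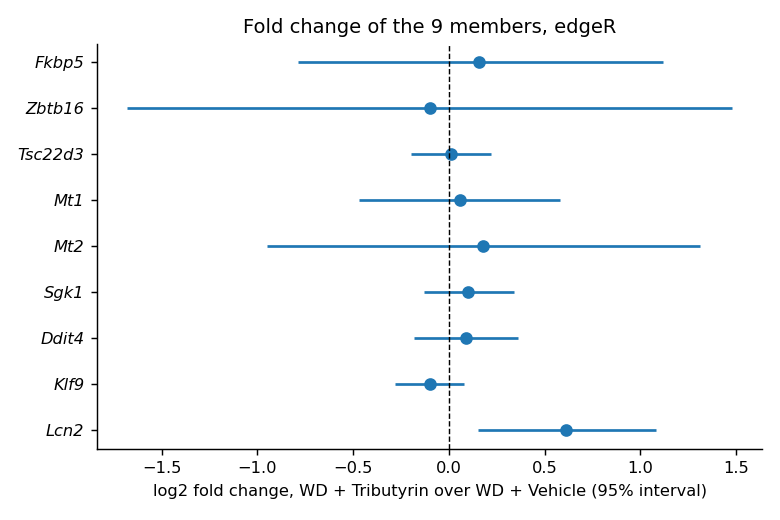
Log2 fold change of the 9 members, WD + Tributyrin over WD + Vehicle (horizontal axis), with 95% intervals from edgeR's quasi-likelihood fit. The interval of Lcn2, 0.15 to 1.08, lies above 0 before adjustment, and those of the other 8 members hold 0.

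Levels between genes were compared per kilobase of annotated exons. *Mt1* was the highest member, with a mean of 69.2 CPM per kb (SD 19.2 over 6 mice), followed by *Ddit4* with 47.7, *Klf9* with 34.0, *Tsc22d3* with 25.1, *Zbtb16* with 19.4, *Sgk1* with 13.9, *Fkbp5* with 5.89, *Mt2* with 4.46 and *Lcn2* with 2.26 CPM per kb. In that order the ranges over the 6 mice did not overlap between *Ddit4* and *Klf9*, between *Klf9* and *Tsc22d3*, or between *Sgk1* and *Fkbp5*. The ranges of all other neighbours in the order overlapped, and *Zbtb16*, from 3.25 to 33.4 CPM per kb, spanned the ranges of several others. Annotated exons that the heart does not use lower such a value, most for genes with many starts.

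The members differed widely from each other in how much mice of the same group varied. The SD within groups, on the log2 CPM scale, had a median of 0.34 over the 9 members beside 0.15 over all genes tested. It was 1.63 for *Zbtb16*, 1.10 for *Mt2*, 0.87 for *Fkbp5* and 0.46 for *Mt1*, all above the 90th percentile of the genes tested (0.43), and for *Zbtb16*, *Mt2* and *Fkbp5* above the 99th (0.81). *Zbtb16* was 14th and *Mt2* 43rd of the 14133 genes in this order, and *Fkbp5* was 106th. The SD of *Mt2* also holds counting error, since it rests on 16 to 100 reads. Its spread lay mostly in the Tributyrin group, 7.64-fold with mouse 1 at 0.569 CPM, against 1.5-fold among the vehicle mice. *Lcn2*, with 0.34, was at percentile 83.8. *Ddit4* (0.21), *Sgk1* (0.16), *Tsc22d3* (0.14) and *Klf9* (0.10) lay between percentiles 29.3 and 66.4.

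**Figure D3:**
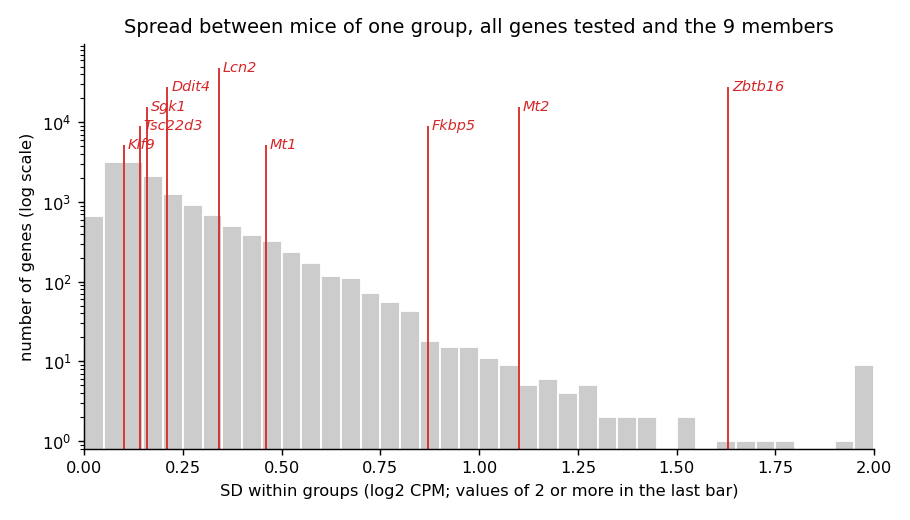
Number of genes (vertical axis, log scale) by SD within groups of log2 CPM (horizontal axis) for the 14133 genes tested (grey bars) and the 9 members (red lines). Zbtb16 (1.63), Mt2 (1.10) and Fkbp5 (0.87) lie far to the right of the median of all genes, 0.15.

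The same mice were low or high across several members. Tributyrin mouse 1 was the lowest of the 6 in 6 of 9 members and Tributyrin mouse 3 the highest in 5 of 9. How often these mice were lowest or highest over all genes tested was not determined, so these counts have no background beside them. Several members also moved together over the mice, so they are not separate counts. Relative to the mean of the gene over the 6 mice, Tributyrin mouse 1 was at -1.19 for *Fkbp5*, -2.10 for *Zbtb16*, -0.61 for *Mt1* and -1.85 for *Mt2* on the log2 scale. Vehicle mouse 1 was at -0.48, -1.61, -0.29 and -0.26 for the same genes, and Tributyrin mouse 3 at 1.05, 1.08, 0.57 and 0.93. These 4 genes were singled out after their values were seen, so no test was made on them as a group.

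**Figure D4:**
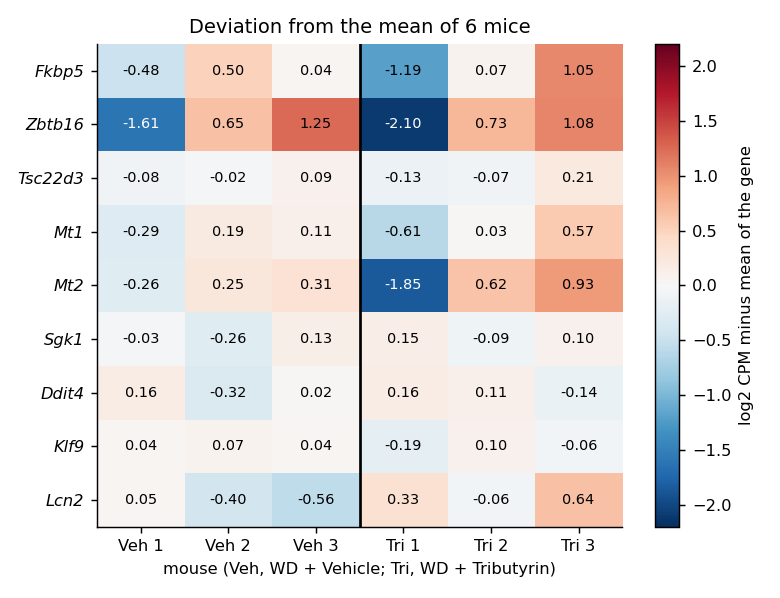
Log2 CPM of each member (rows) in each mouse (columns) minus the mean of that gene over the 6 mice. Vehicle mouse 1 and Tributyrin mouse 1 are below 0 for the first 5 genes, and Tributyrin mouse 3 is above 0 for them, while Sgk1, Ddit4, Klf9 and Lcn2 do not follow this order.

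Pairs of members were compared by the correlation of log2 CPM over the 6 mice, 36 pairs in all. For *Zbtb16* the mice fell into a low pair (vehicle mouse 1 and Tributyrin mouse 1) and a set of 4, so the r of its 8 pairs is not given. Those pairs still count among the 36 over which p was adjusted. Of the other 28 pairs, 5 (17.9%) had r above 0.8, beside 3.59% of all pairs of genes tested, and the median r was 0.12. *Fkbp5* and *Mt1* were the closest pair. Their Pearson r was 0.99 (exact permutation p = 0.00278, adjusted over the 36 pairs 0.1) and their Spearman rho 0.94 (exact permutation p = 0.0167, adjusted 0.191), and r was 0.95 without the 2 mice farthest from the median of *Fkbp5*. With group means subtracted r was also 0.99. *Fkbp5* and *Mt2* had an r of 0.91 (exact permutation p = 0.00694, adjusted 0.1) and a rho of 0.83 (exact permutation p = 0.0583, adjusted 0.191), with 0.63 without those 2 mice. For *Mt1* and *Mt2* r was 0.91 (exact permutation p = 0.00833, adjusted 0.1) and rho 0.77 (exact permutation p = 0.103, adjusted 0.308), with 0.72 without them. *Tsc22d3* had an r of 0.87 with *Mt1* (exact permutation p = 0.0236, adjusted 0.121) and a rho of 0.94 (exact permutation p = 0.0167, adjusted 0.191). Without vehicle mouse 3 and Tributyrin mouse 3, the 2 farthest from the median of *Tsc22d3*, its r with *Mt1* was 0.94. Its r with *Fkbp5* was 0.81 (exact permutation p = 0.0458, adjusted 0.206) and rho 0.83 (exact permutation p = 0.0583, adjusted 0.191). Without Tributyrin mice 1 and 3, the 2 farthest from the median of *Fkbp5*, that r was 0.31, so its size depends on them. The values of 0.94 and 0.31 leave out different mice.

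*Ddit4* went the other way. Its r was -0.76 with *Fkbp5* (exact permutation p = 0.0917, adjusted 0.33) with a rho of -0.89 (exact permutation p = 0.0333, adjusted 0.191). With *Mt1* it was -0.71 (exact permutation p = 0.124, adjusted 0.336) with a rho of -0.94 (exact permutation p = 0.0167, adjusted 0.191). *Sgk1*, *Klf9* and *Lcn2* had r between -0.31 and 0.46 with *Fkbp5*, with exact permutation p values of 0.343 or more. Of the 28 pairs without *Zbtb16*, 5 had an exact permutation p under 0.05 by r and 5 by rho, and 0 after adjustment over the 28 or over the 36 pairs.

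**Figure D5:**
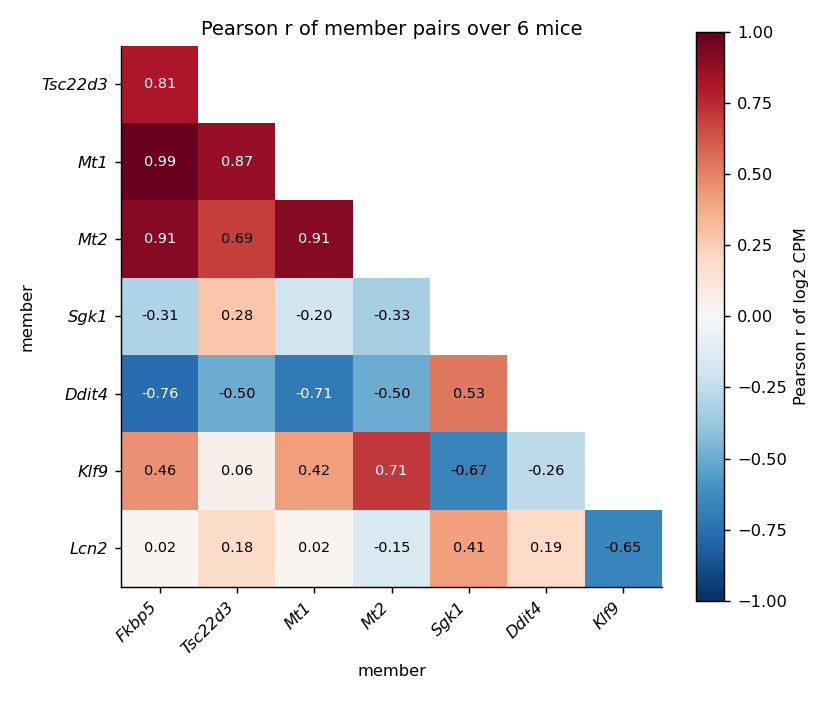
Pearson r of log2 CPM over 6 mice (colour and printed value) for the 28 pairs of members without Zbtb16. Fkbp5, Tsc22d3, Mt1 and Mt2 have r of 0.69 to 0.99 among themselves, and Ddit4 has r below 0 with each of them.

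The 5 genes closest to *Fkbp5* over the 6 mice, among all genes tested, were *Lrrc10* (r 0.993), a cardiac leucine-rich repeat protein, *Mt1* (0.992), *Mavs* (0.989), an adaptor of antiviral signalling, *Sesn1* (0.986), a sestrin that restrains mTORC1, and *Timp4* (0.983), an inhibitor of matrix metalloproteinases. These r are a description over 6 mice that share their libraries. *Timp4* ran from 32.1 CPM in Tributyrin mouse 1 to 98.3 CPM in Tributyrin mouse 3, 3.06-fold, and *Sesn1* from 113.0 to 178.8 CPM in the same mice. *Mavs* moved with *Fkbp5* by only 1.12-fold. Other members stood at rank 162 (*Mt2*) and 578 (*Tsc22d3*) in closeness, where 618 genes, or 4.37% of all tested, had an r above 0.8.

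The receptor and its helpers differed little between the groups. Of 17 listed genes of the receptor axis 16 were tested, 4 higher and 12 lower with Tributyrin, 0 with an unadjusted p under 0.05 (4.25% of all genes) and 0 past 10%, with a median log2 fold change of -0.03. *Nr3c1*, the glucocorticoid receptor, was at 96.3, 91.5 and 91.4 CPM with vehicle and at 98.4, 91.9 and 69.5 CPM with Tributyrin, so that Tributyrin mouse 3, the highest for *Fkbp5*, was the lowest for the receptor. Its log2 fold change was -0.10 (standard error 0.11). *Hsd11b1*, the enzyme that makes active glucocorticoid from its inert form, was at 0.19 (standard error 0.11), and had the smallest unadjusted p of the list, 0.121. Next were *Hspa8*, a constitutive heat shock protein, at 0.12 and the coactivator *Ncoa2* at -0.10. *Hsd11b2*, the enzyme of the reverse reaction, did not pass the filter, at 0.0395, 0.0589 and 0.0946 CPM with vehicle and 0.107, 0.105 and 0.087 CPM with Tributyrin. Over the mice, 1 of the 16 (6.25%) had an r above 0.8 with *Fkbp5*, *Stip1* at 0.96, beside 4.37% of all genes tested. Another 2 (12.5%) had an r below -0.8, *Nrip1* at -0.83 and *Nr3c1* at -0.82, beside 4.6%. The median r of the 16 was 0.17.

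Of 28 tested genes of a wider glucocorticoid response, 10 were higher and 18 lower with Tributyrin, 2 had an unadjusted p under 0.05 and 0 passed 10%, with a median log2 fold change of -0.03. The 2 genes were *Foxo1*, a transcription factor of fasting and atrophy, at -0.23 (standard error 0.09, unadjusted p 0.0315) and *Rgs2*, a brake on Gq signalling, at 0.31 (standard error 0.14, unadjusted p 0.046). *Angptl4*, an inhibitor of lipoprotein lipase, was at 0.50 (standard error 0.23, unadjusted p 0.0524). By contrast, 8 of the 28 (28.6%) had an r above 0.8 with *Fkbp5* over the mice and 3 (10.7%) an r below -0.8, beside 4.37% and 4.6% of all genes tested. *Tgm2* and *Pik3r1* were at 0.97, *Klf15* and *Foxo3* at 0.95, *Cebpb* at 0.92, *Glul* at 0.91, *Hif3a* at 0.83 and *Ptgds* at 0.81, and *Irs2* was at -0.93, *Errfi1* at -0.88 and *Cavin2* at -0.83. They were named after their r was seen, and the list itself was chosen with earlier results of these data known. The median r of the 28 with *Fkbp5* was 0.31, beside 0.0 over all genes tested. The summed CPM of the list was lowest in Tributyrin mouse 1 (2953.0) and had an r of 0.90 with *Fkbp5*. Abundant genes weigh most in that sum, such as *Pdk4* (355.9 to 664.0 CPM), *Ptgds* (334.0 to 585.8 CPM) and *Glul* (281.2 to 433.3 CPM). Other genes of the list went against *Fkbp5*, among them *Trim63* with an r of -0.79, *Rhob* with -0.76 and *Nfkbia* with -0.74. *Per1* and *Dusp1*, which also are direct glucocorticoid targets, were at -0.68 and -0.17 with *Fkbp5*.

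Metal handling genes were set beside the metallothioneins. Of 7 tested besides *Mt1* and *Mt2*, 3 were higher and 4 lower with Tributyrin, and 0 had an unadjusted p under 0.05. The smallest were those of *Slc30a1*, a zinc exporter, at -0.16 (unadjusted p 0.0667), *Mtf1*, the metal-sensing transcription factor, at 0.09 (0.376) and the zinc importer *Slc39a14* at 0.10 (0.389). Over the mice, *Slc39a14* had an r of 0.71 with *Mt1* and 0.71 with *Mt2*, and *Slc39a8*, another metal importer, 0.20 and 0.52, while the r of the other genes ran from -0.22 to 0.14 with *Mt1* and from -0.27 to 0.39 with *Mt2*. *Mt4* had no reads, and *Mt3* was at 0.285 to 0.453 CPM.

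*Lcn2* was set beside an acute phase and NF-kB list, since it is a target of both glucocorticoid and NF-kB signalling. Of 14 tested genes 11 were higher and 3 lower with Tributyrin, 1 had an unadjusted p under 0.05 and 0 passed 10%, with a median log2 fold change of 0.10. *Serpina3n*, an acute phase serine protease inhibitor, was at 0.76 (standard error 0.31, unadjusted p 0.0362), with 23.2 CPM in Tributyrin mouse 2 and 6.36 to 10.4 CPM in the other 5 mice. That mouse was the lowest of its group for *Lcn2*. *Lrg1*, a secreted glycoprotein of the acute phase, was at 0.21 (standard error 0.10, unadjusted p 0.0565). *Socs3*, a feedback inhibitor of cytokine signalling, was at 0.50 (standard error 0.33). Over the mice *Lrg1* had an r of 0.90 with *Lcn2*, but *Serpina3n* was at -0.07 and *Socs3* at -0.03, and the 14 genes ran from -0.62 (*Nfkbiz*) to 0.90. The cytokines *Il6*, *Il1b* and *Tnf* were all at or below 0.265 CPM. Neutrophils are a known source of *Lcn2*, and the 8 neutrophil markers summed to 1.07, 0.265 and 0.378 CPM with vehicle and 0.427, 0.418 and 0.305 CPM with Tributyrin, with *Ly6g* and *Camp* at 0 in all libraries. The part of neutrophils in the difference of *Lcn2* was not tested. Summed fibroblast markers had an r of -0.90 with *Lcn2* and summed endothelial markers 0.77. Singly the endothelial markers went both ways, with *Fabp4* at 0.90, *Egfl7* at 0.48, *Tek* at 0.34 and *Pecam1* at 0.07. *Emcn* was at -0.18, *Kdr* at -0.33, *Cdh5* at -0.43 and *Tie1* at -0.70. Among the fibroblast markers *Tcf21* was at 0.62, and the others ran from -0.93 to -0.39. All r of listed genes and sums with *Lcn2*, here and below, are over the 6 mice of both groups. Group means were not subtracted, so a difference between the groups enters these r. The part of either cell type in the difference of *Lcn2* was not tested. Of the 8 fibroblast markers 2 were higher and 6 lower with Tributyrin, with sums of 884.0 to 1011.2 CPM with vehicle and 791.9 to 983.6 CPM with Tributyrin. Of them *Col1a1*, a chain of type I collagen, was at -0.46 (unadjusted p 0.0224) and the proteoglycan *Lum* at -0.31 (0.00257). The endothelial sums were 949.5 to 977.9 CPM with vehicle and 985.2 to 1082.7 CPM with Tributyrin, 5 of 8 markers were higher, and *Fabp4*, a fatty acid binding protein of capillaries, was at 0.28 (0.0182).

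*Clock* genes were examined because glucocorticoid levels and several members cycle over the day. Of 16 tested, 6 were higher and 10 lower with Tributyrin, and 1 had an unadjusted p under 0.05, *Bhlhe41*, a repressor of the clock, at -0.27 (0.0438). *Per3*, a period gene, was at -0.31 (0.0708), and *Nfil3*, a repressor of clock outputs, at 0.27 (0.0926). Over the mice, 2 of the 16 had an r above 0.8 with *Fkbp5* and 1 an r below -0.8, with a median of 0.14. *Per2* was at 0.95, from 7.51 CPM in Tributyrin mouse 1 to 20.9 CPM in Tributyrin mouse 3, *Nr1d1* (REV-ERBα) at 0.89 and *Npas2* at -0.82. *Clock* was at -0.78, *Arntl* at -0.76 and *Per1* at -0.68, whereas *Tef* was at 0.77, *Ciart* at 0.72 and *Hlf* at 0.63. The other 7 lay between -0.24 (*Bhlhe41*) and 0.48 (*Nfil3*), among them *Dbp* at 0.27, *Per3* at 0.11, *Nr1d2* at 0.08 and *Cry1* at -0.08. The part of the time of collection in the spread of the members was not tested.

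Immediate early genes, which respond within minutes to stimulation or handling, had 14 tested members, 8 higher and 6 lower, with 2 at an unadjusted p under 0.05, the AP-1 subunits *Jund* at -0.20 (0.0228) and *Jun* at -0.22 (0.0351). *Nr4a3*, a nuclear receptor induced by stress, was at 0.81 (0.0634). Their summed CPM was highest in Tributyrin mouse 1 (347.0), against 253.8 to 287.1 in the other 5 mice, and had an r of -0.86 with *Fkbp5*. *Nr4a1* was at 79.3 CPM in that mouse and at 15.0 to 29.2 CPM in the others, and without it the sum was 267.7 CPM there, against 236.5 to 266.6 CPM in the other 5 mice. Of the single genes 2 had an r above 0.8 with *Fkbp5* (*Junb* 0.87, *Ier2* 0.86) and 2 below -0.8 (*Fosl2* -0.97, *Nr4a1* -0.92). The summed erythroid markers were highest there too (942.6 CPM, against 383.3 to 696.7 CPM), with 4 of 6 higher and 0 at an unadjusted p under 0.05, and an r of -0.66 with *Fkbp5*. Neither was tested as a source of the low values of that mouse.

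Among the other marker lists, macrophage sums ran from 225.6 to 282.0 CPM, with 1 of 8 higher, and had an r of 0.70 with *Fkbp5*. Singly the macrophage markers ran from -0.04 (*Mrc1*) to 0.81 (*Cd163*) with *Fkbp5*, with a median r of 0.44. The log2 fold change of *Lyz2* (lysozyme) was 0.17 (unadjusted p 0.0392). Adipocyte markers summed to 7.46 CPM in Tributyrin mouse 2, 4.33 CPM in vehicle mouse 2 and 1.23 to 1.54 CPM in the other 4 mice, and 1 of 8 was tested, *Car3*, at 0.76 (0.306). Cardiomyocyte sums had an r of 0.50 with *Fkbp5*. Singly these markers went both ways with *Fkbp5*, from -0.23 (*Ryr2*) to 0.64 (*Actc1*), with a median r of 0.06. With Tributyrin 5 of 8 cardiomyocyte markers were higher. The unadjusted p was under 0.05 for the calcium pump regulator *Pln* at 0.24 (0.0124), the troponins *Tnni3* at 0.21 (0.0262) and *Tnnt2* at 0.23 (0.0315), and cardiac actin *Actc1* at -0.21 (0.045). Over the mice the markers went both ways with *Lcn2*. The r was 0.98 for *Tnnt2*, 0.94 for *Tnni3* and *Pln*, and 0.86 for the myosin light chain *Myl2*, but -0.38 for *Actc1* and *Ryr2* and -0.61 for *Myh6* and *Ttn*, and the summed markers had an r of -0.26. All 5 tested atrial markers were lower with Tributyrin, 4 with an unadjusted p under 0.05, *Myl4* at -1.86 (0.0147), *Sln* at -2.24 (0.0181), *Mybphl* at -2.17 (0.0182) and *Myl7* at -1.94 (0.0197). The atrial sum had an r of 0.18 with *Fkbp5* and -0.43 with *Lcn2*. Without both vehicle mice with high atrial transcripts, 0 genes passed 10% and *Lcn2* was at 0.90, a comparison of 3 mice with 1 that was added after the data were seen.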

How the data were processed

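Heart ventricle RNA of 3 WD + Tributyrin and 3 WD + Vehicle mice was sequenced as single-end reads of 50 bases. The authors trimmed adapters (cutadapt 1.13 per the submitters' processing notes), removed poor and rRNA reads, aligned with STAR to mm10 and deposited raw counts per Ensembl gene from HTSeq 0.6.1p1, without normalization. They tested with DESeq2 1.14.1. Annotation release and strand setting: not given in the sources used here. Names and positions came from GENCODE M21 (GRCm38), which held 54165 of the 54232 identifiers. The lines that name no gene were 0.

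Groups were compared with edgeR 4.0.16 in R 4.3.3 (quasi-likelihood test, TMM, filterByExpr with a minimum count of 10 and total of 15, Benjamini-Hochberg over all genes tested), with DESeq2 1.42.0 and limma 3.58.1 as alternatives. CPM use TMM library sizes, and log2 CPM a prior count of 2. Correlations and permutation tests used Python 3.11.15, numpy 2.4.6 and scipy 1.17.1, with all 720 pairings. Steps were tested on simulated data. p-values measure the spread between these mice, which the labels number but do not describe further. Libraries of one group differed by more than sampling noise (chi-square per degree of freedom 7.4 to 25.4). Deviations from group means correlated between same-numbered libraries at 0.21, 0.037 and 0.015, and the numbers were not taken to pair mice.

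The members and lists were chosen with earlier results of these data known. Named genes are the 9 members, for each list those with an unadjusted p under 0.05 and the 3 with the smallest p, and the 5 genes closest to *Fkbp5*. All other genes named were chosen after their values were seen. Promoter sequences are from RefSeq.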

Additional observations from a re-analysis of the deposited data

How the results depend on the processing

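Of 108 values of the 9 members over the alternatives chosen beforehand, 89 kept their direction and stayed above an FDR of 10%, 18 changed sign (6 members) and 1 passed 10%, *Lcn2* with no filter (0.62, adjusted p 0.0279 in edgeR). Genes past 10% were 167 with no filter on low counts, 11 by DESeq2, 2 with the replicate number as a replicate block and 0 to 3 with each mouse left out. Past 5% they were 140, 5, 0 and 0 to 3. At an unadjusted p under 0.05 there were 1178 with no filter, 389 (without vehicle mouse 3) to 1360 (without Tributyrin mouse 2) with 1 mouse left out, and 396 without both vehicle mice with high atrial transcripts, a setting added later.

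Signs changed as follows. With limma-voom *Fkbp5* was at -0.07, *Mt1* at -0.01 and *Mt2* at -0.28. In the block *Fkbp5* was at -0.03 and *Mt1* at 0, and the block changed no call of a member. With library size alone, which shifted the median of all genes to -0.0736, *Tsc22d3* was at -0.06 and *Mt1* at -0.03. With single mice left out, *Fkbp5* ran from -0.50 to 0.57, *Zbtb16* from -0.59 to 0.48, *Tsc22d3* from -0.09 to 0.08, *Mt1* from -0.27 to 0.31, *Mt2* from -0.26 to 0.68 and *Ddit4* from -0.04 to 0.20. Without both vehicle mice, *Tsc22d3* was at -0.08, *Mt1* at -0.03, *Mt2* at -0.01 and *Sgk1* at -0.08. The median r of the 36 member pairs, those of *Zbtb16* included, was 0.18. It was 0.02 with library size alone, 0.03 by Spearman rho, 0.12 to 0.25 with 1 mouse left out and, in a setting added later, 0.30 without both mice lowest in *Fkbp5*. The causes were not tested.

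With 3 mice a group, the 95% intervals of *Fkbp5*, *Zbtb16*, *Mt2* and *Lcn2* do not exclude changes of more than 1 on the log2 scale. Those of *Tsc22d3*, *Sgk1*, *Ddit4* and *Klf9* hold none beyond 0.36 in size. Reads on *Mt2* and *Lcn2* were few.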
